A study of Mus musculus with 47 samples.

Results

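Replicate 2 was set against replicate 1 of mouse embryoid bodies (EBs) at day 11 of differentiation, within each siRNA group. The comparison covers every gene with a mean of at least 0.5 RPKM over the 4 libraries. RPKM are reads of a gene scaled by the authors to gene length and to a factor per library that was not proportional to total reads. The limit left 13300 of the 24507 genes in the deposited table, of which 19905 were above 0 in at least 1 library. Just inside this limit lay Pkp3, with a mean of 0.5003 RPKM, and just outside it lay Oas1a and Crtac1, with means of 0.4995 and 0.4990 RPKM. The 4 libraries belong to a series of 47 samples on Tdg, the gene of thymine DNA glycosylase, an enzyme that removes oxidised forms of methylated cytosine from DNA.

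The libraries were siTdg replicate 2, siC replicate 2, siTdg replicate 1 and siC replicate 1, all from E14Tg2A embryonic stem cells (ESCs), a mouse line. The ESCs carried either siRNA against Tdg (siTdg) or control siRNA (siC) and had been kept without serum in N2B27 medium with LIF and the inhibitors PD0325901 and CHIR99021. Total RNA was depleted of ribosomal RNA before stranded library preparation. The labels number the replicates and do not say what a number marks, and they give no EB protocol, start date or batch. Differentiation run, culture, RNA extraction, library and sequencing therefore cannot be told apart in what follows, and a number stands for all of them.

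EBs are aggregates in which stem cells, once released from the signals that hold them in self-renewal, form derivatives of all germ layers without the body plan of an embryo. Early lineages that commonly arise include yolk sac-like endoderm, primitive red cells with embryonic globins, macrophages of the early yolk sac kind, beating cardiac muscle and a stroma that lays down collagen. Their proportions depend on aggregate size, timing and serum, so cultures of 1 line can differ in what they contain.

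The 2 libraries of a number lay close together and far from the other number. A chi-square statistic per degree of freedom over gene read counts was 28.7 between siTdg and siC of replicate 2 and 21.7 between siTdg and siC of replicate 1, but 785 to 937 across numbers. Whole reads could be recovered from the deposited values, and these came to 20818174 and 21775039 reads in siTdg and siC of replicate 2, against 41433232 and 38825128 in siTdg and siC of replicate 1. Genes of cytosolic ribosomal proteins took 21.8% and 23.9% of the reads in siTdg and siC of replicate 2, against 5.92% and 5.96% in siTdg and siC of replicate 1. Each of these shares has a 95% Wilson interval narrower than 0.05 percentage points, which covers counting error only. Tdg itself had 43.7 RPKM (siTdg) and 38.5 RPKM (siC) in replicate 2, against 37.3 RPKM (siTdg) and 35.1 RPKM (siC) in replicate 1. On the authors' scaling Tdg was thus not lower in the libraries labelled siTdg, being above siC within both numbers. Below, siTdg therefore stands for the library labelled siTdg. For Tdg the replicate numbers differed by 0.18 (SE 0.14) on the log2(RPKM + 0.5) scale, with a limma adjusted p of 0.236.

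The difference between the numbers ran with gene length. On the log2(RPKM + 0.5) scale, used for every difference below, the median over genes of replicate 2 minus replicate 1 was 0.72 for genes under 500 bases, 1.70 for 500 to 750 bases, 0.44 for 1500 to 2000 bases and -0.77 for genes over 6000 bases. Genes at least 2-fold higher in replicate 2 had a median length of 1485 bases, those at least 2-fold lower one of 4301.5 bases, and all genes tested one of 2844 bases. Spearman's rho over the 13300 genes was -0.53, a description across genes that share the same 4 libraries. Medians of lists are therefore given as measured and, as corrected medians, after the trend with length was removed by a loess curve, a correction chosen after the trend was seen. The part of length in any single result was not tested.

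**Figure D1:**
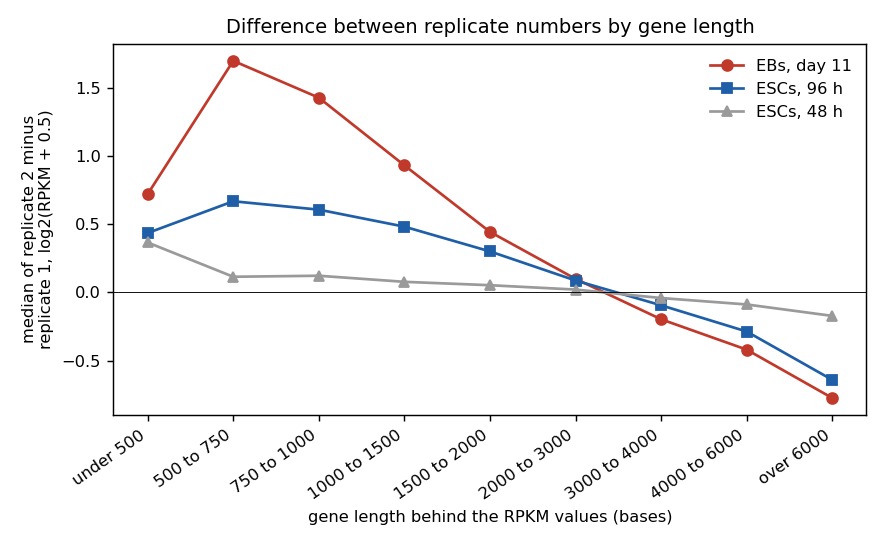
Median over genes of replicate 2 minus replicate 1 (vertical axis, log2(RPKM + 0.5)) in 9 classes of gene length (horizontal axis, bases), for EBs at day 11 and for ESCs at 96 h and 48 h. In EBs the median is 1.70 at 500 to 750 bases and -0.77 over 6000 bases, in ESCs at 96 h it is 0.67 and -0.64, and in ESCs at 48 h it is 0.11 and -0.17.

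Most genes differed between the numbers. With siRNA as a block and a limma adjusted p below 0.05 as the threshold, 9833 of 13300 genes were called (73.9%). Of them 4998 were higher (37.6%) and 4835 lower (36.4%) in replicate 2. At least 2-fold differences were called for 4591 (34.5%) genes, 2683 higher (20.2%) and 1908 lower (14.3%). Scaled to total reads instead of by the authors, the median of all genes shifted by -0.38 and the split became 3460 higher and 6716 lower. The siTdg pair and the siC pair, which share no library, gave differences correlated over genes at r = 0.95 (rho = 0.95), with the same sign for 90.8% of genes. In both pairs 92 genes were at least 8-fold higher and 41 at least 8-fold lower. The model leaves 1 residual degree of freedom per gene. Its p-values therefore rest on how far the siTdg pair and the siC pair agree in replicate 2 minus replicate 1. They do not measure the spread between independent differentiations.

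**Figure D2:**
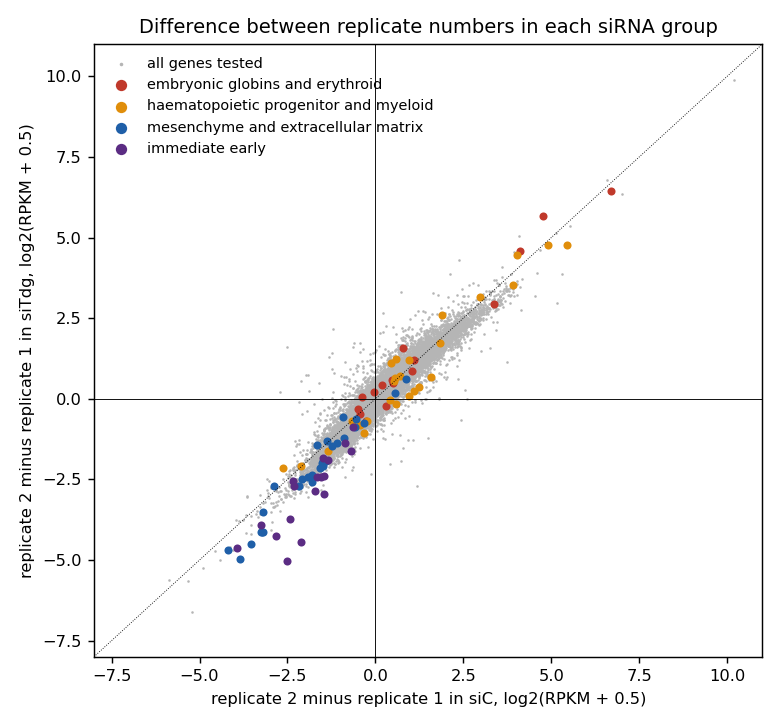
Replicate 2 minus replicate 1 in siTdg (vertical axis) against the same difference in siC (horizontal axis), both on the log2(RPKM + 0.5) scale, 1 grey point per gene and coloured points for 4 gene lists; the dotted line marks equality. The globins and the most raised myeloid genes lie at the upper right and most extracellular matrix and immediate early genes at the lower left, in both pairs, with r = 0.95 over all genes.

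Embryonic globins were among the 12 most raised named genes and Ccl20 and Cxcl1 among the 12 most lowered; Morf4l1b (6.68) and Mrgpra6 (5.44), whose reads may be shared with near-identical genes, were also among the most raised. Upstream sequence is shown for 2 globin and 2 chemokine genes, because the results on blood and on chemokines turn on them: the 130 bases before the start site on the gene's own strand, from RefSeq on build GRCm38.p6, which is not the mm9 build that the submitters' processing notes name. Of the 12 most raised and 12 most lowered genes, 18 had an entry; Hbb-bh1, Tyrobp and Ccl2 are named only. Capitals mark a CACCC box (letters CCACCC) in the globin genes and the kappa B consensus in the chemokine genes, both searched on either strand.
Hbb-y, chr7:103853208-103853337, minus strand: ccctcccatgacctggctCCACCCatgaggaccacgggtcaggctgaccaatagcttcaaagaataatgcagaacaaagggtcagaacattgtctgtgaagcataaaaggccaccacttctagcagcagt
Hba-x, chr11:32276470-32276599, plus strand: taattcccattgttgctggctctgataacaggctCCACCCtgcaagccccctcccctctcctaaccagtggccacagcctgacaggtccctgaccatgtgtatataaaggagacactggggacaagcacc
Ccl20, chr1:83116636-83116765, plus strand: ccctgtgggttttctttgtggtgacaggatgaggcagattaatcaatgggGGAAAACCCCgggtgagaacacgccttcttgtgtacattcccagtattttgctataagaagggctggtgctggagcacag
Cxcl1, chr5:90891115-90891244, plus strand: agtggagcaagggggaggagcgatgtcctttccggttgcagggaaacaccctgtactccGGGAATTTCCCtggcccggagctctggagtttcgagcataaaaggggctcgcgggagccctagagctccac
The CACCC box began 112 bases before the start in Hbb-y and 96 bases before it in Hba-x, and 17.6% of all 32851 promoter windows of this length hold it. The kappa B match began 80 bases before the start in Ccl20, on the opposite strand, and 71 bases before it in Cxcl1, where 2 matches on opposite strands overlap by all but 1 base at each end. Of the windows 2.02% hold such a match. Matches were listed for the 4 genes shown and not for the other most raised and most lowered genes with an entry. Whether such matches are more frequent among those genes was not tested. Of the spellings of the GATA motif only AGATAA was searched: 4.79% of the windows hold it and none of the 4 shown here does. The spelling TGATAA, which was not searched, stands in the Hba-x window, so a lack of GATA sites cannot be read from this search. A match of letters is a description and, like the lack of one, says nothing of which factor was bound.

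The 3 embryonic globins rose strongly. Hbb-bh1, the beta-like globin of the first red cells of the yolk sac, had 413 RPKM (siTdg) and 217 RPKM (siC) in replicate 2, against 4.24 RPKM (siTdg) and 1.58 RPKM (siC) in replicate 1. The groups were far apart, with a difference of 6.58 (SE 0.14, limma adjusted p 1.40e-26) that was 4.88 after the correction for length. Hbb-y, the other embryonic beta-like globin, had 246 RPKM (siTdg) and 78.2 RPKM (siC) in replicate 2, against 4.39 RPKM (siTdg) and 2.37 RPKM (siC) in replicate 1. Hba-x, the embryonic alpha-like globin, had 73.9 RPKM (siTdg) and 24.99 RPKM (siC) in replicate 2, against 2.63 RPKM (siTdg) and 0.979 RPKM (siC) in replicate 1. In each of the 3 globins the siTdg library was above the siC library of the same number. Both libraries of replicate 2 were above both of replicate 1, a pattern not counted over all genes, of which 73.9% were called.

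Of 41 erythroid genes in the list, 16 passed the limit on level, 9 of them higher and 2 lower in replicate 2, with a median of 0.51 (0.57 after the length correction). All 4 members under 1500 bases and all 5 of 1500 to 3000 bases rose. Of the 7 of at least 3000 bases 0 rose and 2 fell. Beside these counts and the myeloid ones below, 37.6% of all genes rose and 36.4% fell. Under 1500 bases 1887 of all 2547 genes rose. Alas2, which makes the haem of red cells, rose to 2.90 RPKM (siTdg) and 1.19 RPKM (siC) in replicate 2, against 0.654 RPKM (siTdg) and 0.477 RPKM (siC) in replicate 1. The erythroid transcription factors Gata1 and Klf1 were at or under 0.232 RPKM in every library, below the limit on level. The transferrin receptor Tfrc and the iron importer Slc25a37 had differences of -0.16 and 0.31 that did not pass the test. In these bulk libraries more red cells and more globin message per cell cannot be told apart, and the same holds for each cell type below.

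Several myeloid genes, most of all short ones, were also raised. Tyrobp, the signalling adaptor of macrophage receptors, had 152 RPKM (siTdg) and 151 RPKM (siC) in replicate 2, against 5.11 RPKM (siTdg) and 3.00 RPKM (siC) in replicate 1. The difference was 5.10 (SE 0.15, limma adjusted p 1.21e-22), and 3.34 after the length correction. Pf4, a chemokine of platelets and yolk sac macrophages, had 80.4 RPKM (siTdg) and 65.9 RPKM (siC) in replicate 2, against 2.50 RPKM (siTdg) and 1.71 RPKM (siC) in replicate 1. Fcgr3 and Fcer1g, which form an activating receptor for antibodies, rose by 4.24 and 3.72, and the lipid receptor Trem2 rose by 4.25. Trem2 was almost undetected in replicate 1, at 0.0377 RPKM (siTdg) and 0.0732 RPKM (siC), against 12.2 RPKM (siTdg) and 8.32 RPKM (siC) in replicate 2.

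Not every myeloid gene moved this way. Of 35 genes in the haematopoietic and myeloid list 26 passed the limit, 17 higher and 7 lower, with a median of 0.69 (0.30 after the length correction). Among the 11 members under 1500 bases 10 rose and 1 fell (median 2.25), where 1887 of all 2547 genes of that length rose (median 1.10). Among the 10 of at least 3000 bases 4 rose and 5 fell (median -0.14). The lower members included Runx1, the transcription factor that starts definitive blood formation (-2.11), the stem cell factor receptor Kit (-0.62, no longer called after the length correction or without siTdg replicate 1) and the platelet chemokine Ppbp (-2.39). The mannose receptor Mrc1, a macrophage gene with a long transcript, rose by 1.78 and by 2.25 after the correction. All 3 subunits of complement C1q rose, by 2.19 to 3.27, and 5 of the 7 measured Ms4a membrane proteins rose, led by Ms4a6b at 4.64. Csf1r, the receptor that macrophages need, rose by 0.60, a call lost without siC replicate 1, without siTdg replicate 2 or when scaled to total reads. Fits without 1 library also drop the siRNA block; dropping the block alone kept the calls of Kit, Csf1r, Afp and Pou5f1. Ptprc, the pan-leukocyte CD45, was at or under 0.761 RPKM in all libraries and under the limit.

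Some chemokines fell among the furthest of all genes, while others rose. Ccl20, which draws in lymphocytes and dendritic cells, was listed at 0 in both libraries of replicate 2, against 24.1 RPKM (siTdg) and 28.7 RPKM (siC) in replicate 1. Cxcl1, which draws in neutrophils, had 0.349 RPKM (siTdg) and 0.226 RPKM (siC) in replicate 2, against 32.0 RPKM (siTdg) and 21.3 RPKM (siC) in replicate 1. The monocyte attractant Ccl2 had 5.28 RPKM (siTdg) and 6.05 RPKM (siC) in replicate 2, against 151 RPKM (siTdg) and 155 RPKM (siC) in replicate 1. In all 3 the replicate numbers did not overlap, a pattern not counted over all genes, of which 73.9% were called. These transcripts are short, so the length correction made the difference larger: -5.08 became -6.38 for Cxcl1 and -4.64 became -6.09 for Ccl2.

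Other secreted proteins, chosen as the most lowered genes and not as a list, fell as far. The serum amyloid Saa3 fell to 0.832 RPKM (siTdg) and 2.82 RPKM (siC) in replicate 2, against 129 RPKM (siTdg) and 124 RPKM (siC) in replicate 1. Complement C3, with a transcript of 5139 bases, had a difference of -5.49 (SE 0.16), and the protease inhibitor Serpina3n one of -4.71. Of 33 chemokine genes 19 were measured, 6 higher and 10 lower, with a median of -0.51 (-1.16 after the correction). The 6 higher ones were led by Ccl9, at 3.94, and Ccl6, at 3.26, both known as products of mouse macrophages, so members of 1 family moved in opposite directions. Interferon and antigen presentation genes split 9 higher and 12 lower of 27 measured (median -0.07, -0.55 corrected). Those that fell included the interferon-induced chemokine Cxcl10 at -3.68 and the class I antigen H2-K1 at -2.12. Beside these counts and those of the chemokines, 37.6% of all genes rose and 36.4% fell.

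**Figure D3:**
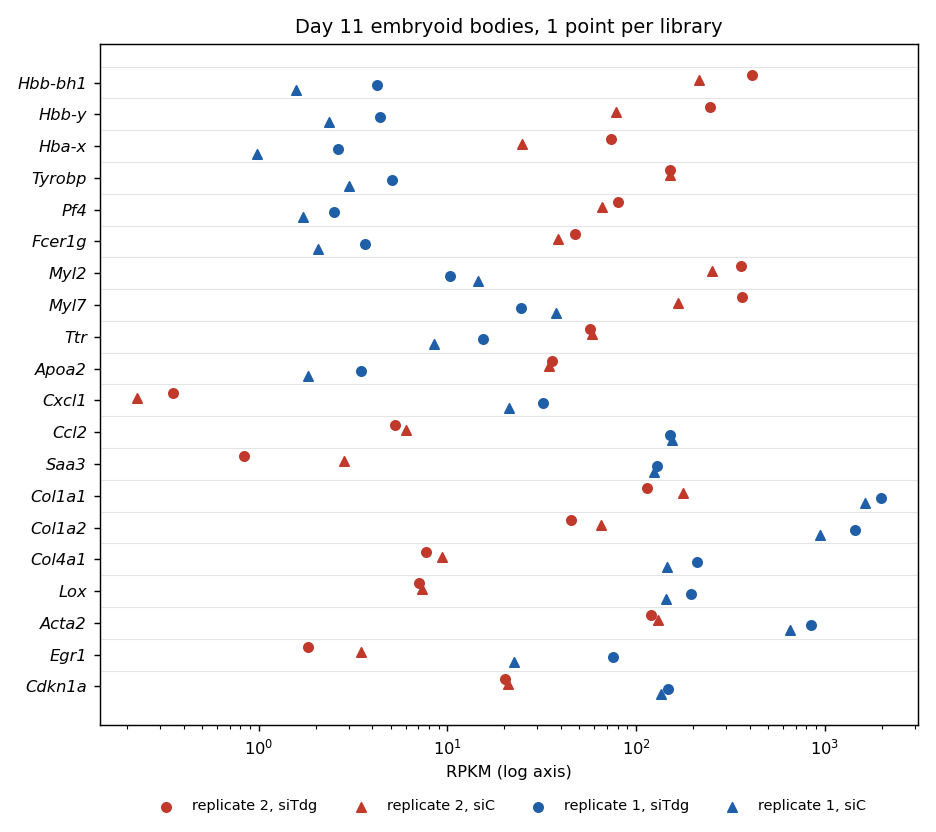
RPKM (horizontal log axis) of 20 genes in the 4 EB libraries, 1 point per library; red points are replicate 2 and blue points replicate 1, circles siTdg and triangles siC. For every gene shown the points of replicate 2 lie wholly to 1 side of those of replicate 1. They lie above them from Hbb-bh1 to Apoa2 and below them from Cxcl1 to Cdkn1a. How many of all genes do so was not counted.

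Extracellular matrix genes were lower in replicate 2 almost throughout. Beside the counts of this list and of the basement membrane, smooth muscle and immediate early lists below, 36.4% of all genes fell. Among the 6239 genes of at least 3000 bases 3410 fell. Of 31 genes in the mesenchyme and matrix list 29 were measured, and 27 fell and 2 rose, with a median of -1.79 (-1.41 after the length correction, with 28 lower and 0 higher). Col1a2, a chain of type I collagen, had 45.2 RPKM (siTdg) and 65.0 RPKM (siC) in replicate 2, against 1441 RPKM (siTdg) and 942 RPKM (siC) in replicate 1. Its partner Col1a1 had 114 RPKM (siTdg) and 176 RPKM (siC) in replicate 2, against 1992 RPKM (siTdg) and 1640 RPKM (siC) in replicate 1. The numbers were far apart for both chains, by -4.41 for Col1a2 and -3.67 for Col1a1. Lox, the enzyme that cross-links collagen, fell by 4.45, and fibronectin Fn1 and tenascin Tnc had differences of -3.66 and -3.34. The fibroblast marker Pdgfra fell by 1.34, less than the collagens, and the small matrix proteins Mfap2 and Mfap4 were the 2 that rose.

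Basement membrane genes fell with them. Of 32 measured collagen genes 29 fell and 0 rose (median -1.90, -1.36 corrected), and of 10 laminin chains 8 fell (median -1.98, -1.35 corrected). Of 17 integrins, which anchor cells to this matrix, 15 fell as measured and 11 after the correction (median -1.48, -0.94 corrected). Col4a1, a chain of the basement membrane collagen, had 7.67 RPKM (siTdg) and 9.38 RPKM (siC) in replicate 2, against 209 RPKM (siTdg) and 146 RPKM (siC) in replicate 1. Col4a2, whose start site lies 21 bases from that of Col4a1 on the opposite strand of chromosome 8, had 4.05 RPKM (siTdg) and 4.72 RPKM (siC) in replicate 2, against 118 RPKM (siTdg) and 85.1 RPKM (siC) in replicate 1. The pair fell by 4.29 and 4.37. Parietal endoderm, which makes the thick membrane around the mouse yolk sac, shares these genes: 15 of its 20 measured genes fell and 3 rose (median -1.28, -1.29 corrected), with Lama1 at -3.52 and Lamc1 at -3.09.

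Contractile and growth-responsive genes fell too. Smooth muscle actin Acta2 fell to 120 RPKM (siTdg) and 131 RPKM (siC) in replicate 2, against 841 RPKM (siTdg) and 651 RPKM (siC) in replicate 1. Of 12 measured smooth muscle genes 9 fell and 2 rose, with a median of -0.82 (-0.69 corrected). Their median length was 3306.5 bases, and 3410 of the 6239 genes of at least 3000 bases fell. The mature marker Myh11 was under 1 RPKM in all libraries. All 18 measured immediate early genes, which respond within minutes to growth factors and stress, fell, with a median of -2.26 (-2.59 corrected). Egr1 had 1.83 RPKM (siTdg) and 3.50 RPKM (siC) in replicate 2, against 75.5 RPKM (siTdg) and 22.4 RPKM (siC) in replicate 1. The connective tissue growth factor gene Ctgf had 5.96 RPKM (siTdg) and 6.600 RPKM (siC) in replicate 2, against 160 RPKM (siTdg) and 108 RPKM (siC) in replicate 1. Junb, Ier3, Fos and the matricellular gene Cyr61 had differences of -3.53, -3.58, -3.28 and -3.07. In replicate 1 the siTdg library was above the siC library for Egr1, Junb and Ier3, and in replicate 2 it was below it for Egr1 and Junb.

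Heart muscle genes moved in both directions, short ones more often up and long ones more often down. Of 36 genes 31 were measured, 10 higher and 12 lower, with a median of -0.17 that became 0.08 after the length correction. After it 8 were still called higher and 11 lower, so a split remained. Among the 11 members under 1500 bases 8 rose and 1 fell (median 1.88), and among the 14 of at least 3000 bases 0 rose and 9 fell (median -0.67). Over all genes those 2 length classes had medians of 1.10 and -0.44, with 1887 of 2547 short genes higher and 3410 of 6239 long genes lower. The ventricular light chain Myl2 had 361 RPKM (siTdg) and 251 RPKM (siC) in replicate 2, against 10.4 RPKM (siTdg) and 14.4 RPKM (siC) in replicate 1. The atrial light chain Myl7 had 364 RPKM (siTdg) and 167 RPKM (siC) in replicate 2, against 24.4 RPKM (siTdg) and 37.8 RPKM (siC) in replicate 1. Both stayed higher after the correction, by 2.94 and 1.28, as did Myl3 (1.83), the muscle LIM protein gene Csrp3 (2.08) and phospholamban Pln (2.34).

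Other heart genes did not follow the light chains. The long myosin heavy chains Myh6 and Myh7 had differences of -0.34 and -0.26 that did not pass the test, and the sign was positive in siTdg and negative in siC for both. Troponin T, Tnnt2, a short transcript, fell to 26.2 RPKM (siTdg) and 12.3 RPKM (siC) in replicate 2, against 43.4 RPKM (siTdg) and 41.6 RPKM (siC) in replicate 1. The cardiac transcription factor Tbx20 fell by 1.80 and the pacemaker channel Hcn4 by 1.66, while Nkx2-5 was under the limit on level. After the length correction Myh6 and Myh7 had differences of 0.24 and 0.32, which did not pass the test either. Counts and median of the list gave no common direction. Its summed level was 1533 RPKM (siTdg) and 1034 RPKM (siC) in replicate 2, against 485 RPKM (siTdg) and 484 RPKM (siC) in replicate 1.

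**Figure D4:**
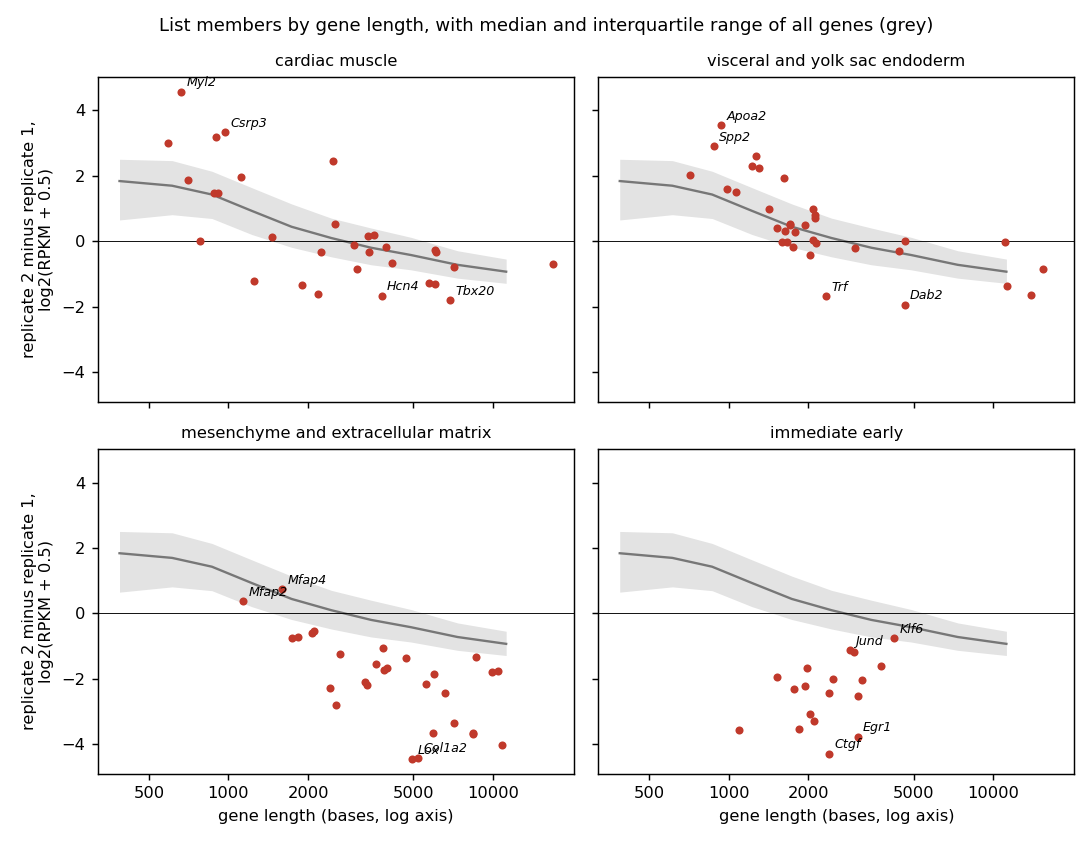
Replicate 2 minus replicate 1 (vertical axes, log2(RPKM + 0.5)) against gene length (horizontal log axes, bases) for the members of 4 lists, 1 red point per gene; the grey line is the median and the grey band the interquartile range of all genes of that length, without the shortest RNA genes. Heart and yolk sac genes lie on both sides of the grey line, with Myl2 at 4.57 and Apoa2 at 3.56 above it. Matrix and immediate early genes lie below it at nearly all lengths.

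Yolk sac endoderm genes likewise differed with transcript length. Over all genes 37.6% rose and 36.4% fell. Of 44 genes 34 were measured, 17 higher and 5 lower, with a median of 0.36 that was 0.09 after the length correction and -0.02 when scaled to total reads. All 9 members under 1500 bases rose, and of the 7 of at least 3000 bases 4 fell and 0 rose. Transthyretin, Ttr, had 57.2 RPKM (siTdg) and 58.5 RPKM (siC) in replicate 2, against 15.4 RPKM (siTdg) and 8.47 RPKM (siC) in replicate 1. Apoa2, a protein of high-density lipoprotein, had 35.9 RPKM (siTdg) and 34.7 RPKM (siC) in replicate 2, against 3.50 RPKM (siTdg) and 1.81 RPKM (siC) in replicate 1. After the correction these 2 differences were 1.31 and 2.25. The fetal serum protein Afp rose by 0.98, but the call was lost without siC replicate 1 or siTdg replicate 2 and the sign turned under quantile normalization (-0.0080). Afp had 290 RPKM (siTdg) and 128 RPKM (siC) in replicate 2, against 136 RPKM (siTdg) and 69.6 RPKM (siC) in replicate 1. Its replicate numbers thus overlapped, and its difference of siTdg minus siC was 1.07. The endocytic receptors of this tissue, Cubn and Lrp2, had differences of -1.36 and -0.84, which became -0.37 and 0.33.

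Definitive endoderm, epithelial and endothelial genes were more often lower than higher. These counts, and those of the pluripotency, Hox, mesoderm and cartilage lists below, stand beside 36.4% of all genes that fell. Of the 6239 genes of at least 3000 bases 3410 fell. Of 22 measured gut endoderm genes 14 fell and 7 rose (median -0.55, -0.38 corrected), led by the simple-epithelium keratins Krt8 (-1.81) and Krt19 (-1.74) and by E-cadherin Cdh1 (-1.59). These genes are also in the surface epithelium list, in which 13 of 16 fell and 3 rose (median -0.79, -1.17 corrected). The definitive endoderm markers chosen here did not move together. Sox17 and Foxa2 were at or under 2.84 RPKM in all libraries and lower in replicate 2, with differences of -0.65 and -1.03. After the length correction Sox17 was no longer called (-0.36). The chemokine receptor Cxcr4 rose by 1.85. Of 24 measured endothelial genes 13 fell and 5 rose (median -0.46, -0.42 corrected), a share of lower genes near that of long genes. Their median length was 3299.5 bases. With a limit of 2 RPKM the median difference of this list turned to 0.31. Kdr, the main receptor for VEGF, had 10.5 RPKM (siTdg) and 12.0 RPKM (siC) in replicate 2, against 37.6 RPKM (siTdg) and 25.8 RPKM (siC) in replicate 1. The endothelial cadherin Cdh5 fell by 1.41 and Pecam1 by 1.13.

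Few neural and trophoblast genes passed the limit on level: 12 of 39 neural progenitor, 11 of 48 neuronal and 6 of 24 trophoblast genes, and Sox1, Pax6, Dcx and Elavl3 were each at or under 0.0929 RPKM in every library. Nes, an intermediate filament of progenitors that is also made outside the nervous system, fell by 2.49, and the tubulin Tubb3 fell by 2.78. Of the streak markers T, Mixl1 and Eomes none passed the limit. Pluripotency genes were low, with Pou5f1 between 2.99 and 7.15 RPKM over the EB libraries. Of 15 measured pluripotency genes 5 rose and 9 fell (median -0.57, -0.18 corrected): Klf4 and Klf2, which respond to many signals, fell by 2.83 and 1.91, while Nanog rose by 1.18. Dppa5a, a gene of naive stem cells named after its value was seen, had 33.6 RPKM (siTdg) and 98.4 RPKM (siC) in replicate 2, against 3.82 RPKM (siTdg) and 2.26 RPKM (siC) in replicate 1. Pou5f1 fell by 0.68, but this call was lost without siC replicate 1 or siTdg replicate 2.

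Of 27 measured Hox genes 18 fell and 2 rose, with a median of -0.59 (-0.88 corrected). The posterior genes Hoxb9 (-2.28) and Hoxc10 (-1.99) and the trunk gene Hoxc8 (-1.59) fell furthest. Of 19 measured paraxial, lateral and intermediate mesoderm genes 10 fell and 2 rose (median -0.69, -0.56 corrected), with the lateral plate factor Hand1 at -1.35, Tbx4 of the allantois and hindlimb field at -1.65 and Osr1 of intermediate mesoderm at -1.79. Of 11 cartilage genes 8 fell and 1 rose (median -0.90, -0.64 corrected), the largest difference being that of Col11a1 (-3.35).

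**Figure D5:**
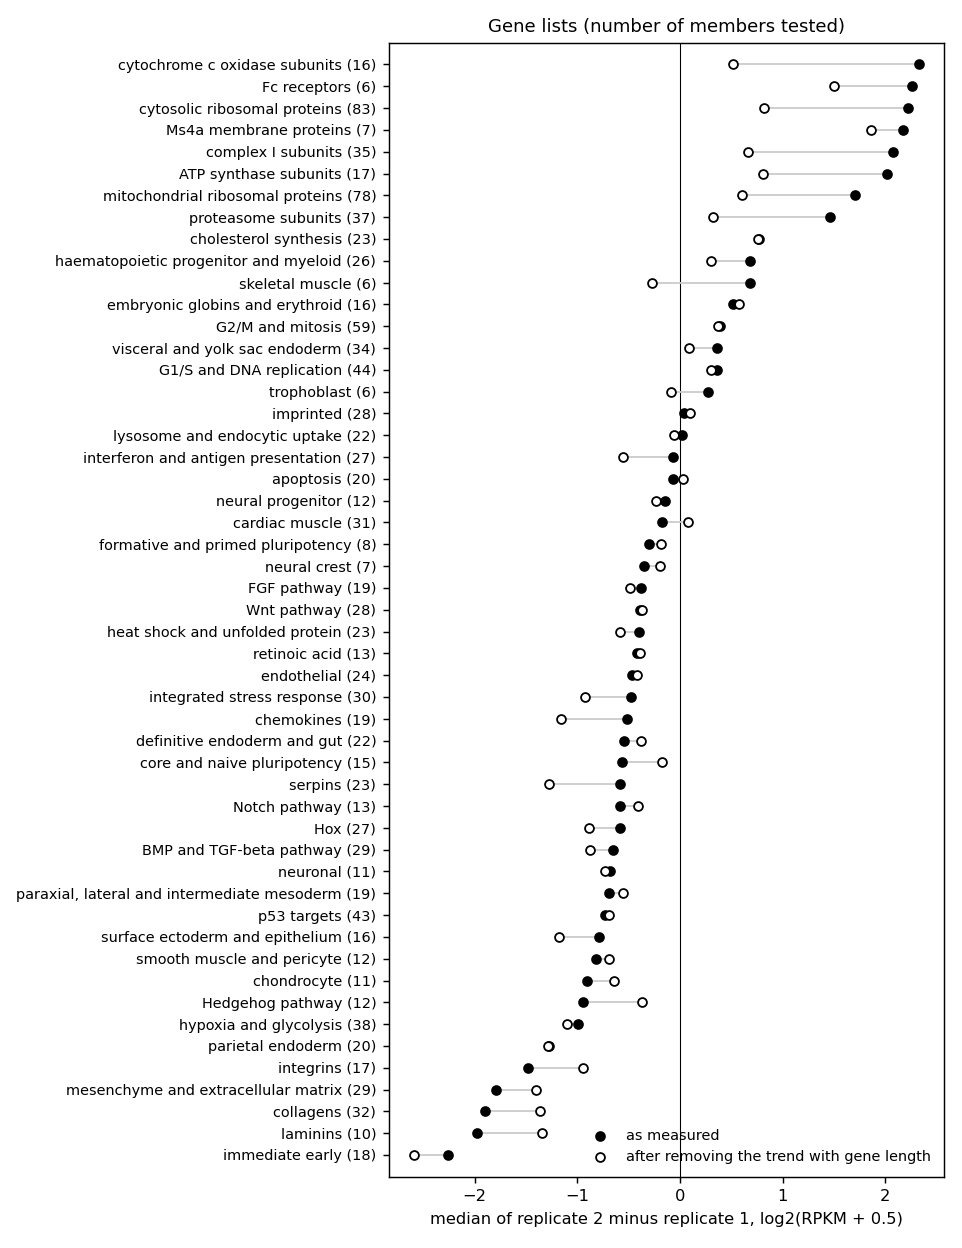
Median over the measured members of 51 gene lists of replicate 2 minus replicate 1 (horizontal axis, log2(RPKM + 0.5)), as measured (filled) and after the trend with gene length was removed (open); numbers of members stand in brackets. Matrix, laminin and immediate early lists stay below -1.3 both ways, and the Ms4a and Fc receptor lists stay above 1.4; skeletal muscle, trophoblast, cardiac, apoptosis and lysosome medians change sign with the correction, and the yolk sac, cell cycle, imprinted, lysosome and trophoblast medians turn when scaled to total reads.

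Signalling pathways are given by ligand, receptor and target, and their counts stand beside 36.4% of all genes, and 3410 of the 6239 of at least 3000 bases, that fell. In the BMP and TGF-beta list 17 of 29 measured genes fell and 6 rose (median -0.65, -0.88 corrected). The activin subunit Inhba fell by 3.51, the matrix target Tgfbi by 2.50 and the BMP antagonist Nog by 2.07. In the Wnt list 14 of 28 fell and 4 rose (median -0.39, -0.37 corrected), a share near that of long genes, with the ligand Wnt5a at -1.88 and the receptor Fzd1 at -1.06. In the FGF list 9 of 19 fell and 1 rose (median -0.38, -0.49 corrected); the feedback inhibitors Dusp4 (-3.03), Dusp6 (-1.60), Spry1 (-1.65) and Spry4 (-1.47) were among those that fell. Hedgehog genes fell in 8 of 12 cases and rose in 2, with the effectors Gli3 and Gli2 at -1.58 and -1.39, but their median of -0.95 (-0.37 corrected) was 0.15 when only genes of 2000 to 4000 bases were tested. Notch genes fell in 9 of 13 cases and rose in 1 (median -0.59, -0.41 corrected), with the modifier Lfng at -1.83. Retinoic acid genes split, with 7 of 13 lower and 4 higher (median -0.42, -0.39 corrected). The synthetic enzyme Rdh10 was at -1.25, while the summed level of the list was 206 RPKM (siTdg) and 167 RPKM (siC) in replicate 2, against 121 RPKM (siTdg) and 101 RPKM (siC) in replicate 1.

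Cell state lists moved in both directions, and over all genes 37.6% rose and 36.4% fell. Of 59 measured G2/M genes 32 rose and 9 fell (median 0.39, 0.37 corrected). Of 44 G1/S genes 23 rose and 11 fell (median 0.36, 0.30 corrected). All 4 G2/M and all 7 G1/S genes under 1500 bases rose. Of the 32 G2/M genes of at least 3000 bases 10 rose and 7 fell, and of the 21 such G1/S genes 5 rose and 10 fell. The medians of both lists turned slightly negative, to -0.02 and -0.07, when scaled to total reads. The replication clamp Pcna had 491 RPKM (siTdg) and 555 RPKM (siC) in replicate 2, against 92.3 RPKM (siTdg) and 101 RPKM (siC) in replicate 1. The kinase cofactors Cks2 and Cks1b rose by 2.61 and 2.58, of which 1.02 and 1.07 remained after the correction. The cell cycle inhibitor Cdkn1a, a target of p53, ran the other way, with 20.1 RPKM (siTdg) and 20.9 RPKM (siC) in replicate 2, against 148 RPKM (siTdg) and 136 RPKM (siC) in replicate 1. In all 27 of 43 measured p53 targets fell and 9 rose (median -0.73, -0.69 corrected). Those that fell included Ephx1 (-2.87) and Btg2 (-2.51), and Btg2 is also in the immediate early list. The summed level of the p53 list was nevertheless 2119 RPKM (siTdg) and 2685 RPKM (siC) in replicate 2. In replicate 1 it was 1411 RPKM (siTdg) and 1324 RPKM (siC).

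Sterol and sugar metabolism also separated the numbers. The list counts of this paragraph stand beside 37.6% of all genes that rose and 36.4% that fell. Of 23 measured cholesterol synthesis genes 15 rose and 3 fell, with a median of 0.77 (0.75 corrected). Idi1, which isomerises the building block of sterols, had 111 RPKM (siTdg) and 87.5 RPKM (siC) in replicate 2, against 21.8 RPKM (siTdg) and 28.9 RPKM (siC) in replicate 1. Msmo1 and Tm7sf2, of the later steps, rose by 2.02 and 2.08. Of 38 hypoxia and glycolysis genes 27 fell and 6 rose (median -0.998, -1.10 corrected). The glucose transporter Slc2a1 had 55.2 RPKM (siTdg) and 57.6 RPKM (siC) in replicate 2, against 348 RPKM (siTdg) and 247 RPKM (siC) in replicate 1. The glycolytic enzymes Hk1 and Pfkfb3 fell by 2.18 and 2.22. Integrated stress response genes fell in 16 of 30 cases and rose in 6 (median -0.48, -0.93 corrected), with Ppp1r15a at -2.39 and Cebpb at -2.03. In the heat shock list 12 of 23 fell and 6 rose (median -0.40, -0.58 corrected), with Hspb1 at -2.15. The summed level of that list was nevertheless 7426 RPKM (siTdg) and 6753 RPKM (siC) in replicate 2, against 4859 RPKM (siTdg) and 4199 RPKM (siC) in replicate 1.

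Genes of the ribosome and the respiratory chain, nearly all short, were higher. Over all genes 37.6% rose, and under 1500 bases 1887 of 2547 did. Of 83 measured cytosolic ribosomal protein genes 80 rose and 1 fell (median 2.22), of 78 mitochondrial ribosomal protein genes 74 rose (median 1.70), and of 35 complex I subunits 32 rose (median 2.07). After the length correction the medians were 0.82, 0.61 and 0.66, with 55, 53 and 21 higher and 12, 9 and 3 lower. Many cytosolic ribosomal protein genes have near-identical processed copies, between which the authors' counting could have divided reads. The spliceosome subunit gene Snrpg, with a transcript of 393 bases, had 2644 RPKM (siTdg) and 4180 RPKM (siC) in replicate 2, against 178 RPKM (siTdg) and 173 RPKM (siC) in replicate 1.

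Imprinted genes gave no common direction, with 12 of 28 higher and 11 lower (median 0.04, 0.09 corrected). The growth-restraining RNA H19 had 288 RPKM (siTdg) and 270 RPKM (siC) in replicate 2, against 31.9 RPKM (siTdg) and 64.9 RPKM (siC) in replicate 1. Igf2r, the receptor that clears IGF2, had 13.1 RPKM (siTdg) and 16.1 RPKM (siC) in replicate 2, against 138 RPKM (siTdg) and 124 RPKM (siC) in replicate 1. Airn, transcribed antisense to Igf2r, rose by 1.70 while Igf2r fell by 3.12; that the counting used strand is not stated, so reads of the overlap cannot be told apart. Igf2 had a difference of -1.197, Nnat rose by 2.27 and Grb10 fell by 3.02.

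ESC libraries of the same siRNAs, in tables scaled separately, show how far replicate numbers differ without differentiation. At 48 h limma called 6416 of 12217 genes (52.5%) and 458 at least 2-fold (3.75%). Without the siRNA block it called 4361, and when 1 library was left out as well, siTdg replicate 2, siC replicate 2, siC replicate 1 or siTdg replicate 1, it called 1677, 2529, 2550 and 3175. At 96 h it called 8759 of 12174 genes (71.9%) and 1234 at least 2-fold (10.1%). The median absolute difference over genes was 0.71 in EBs, 0.25 in ESCs at 48 h and 0.42 at 96 h, and no test was made between tables. Over the genes measured in both, the EB difference had a Pearson r of 0.37 with that at 48 h and 0.63 with that at 96 h, or 0.31 and 0.46 after the length correction. Medians at 48 h and 96 h were 0.03 and 0.62 for cytosolic ribosomal proteins, -0.19 and -0.21 for immediate early genes and 0.18 and 0.71 for cholesterol synthesis. Whether a number marks the same event in ESCs and EBs is not stated in the labels.

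The siRNA difference was small beside that between numbers. With replicate number as a block limma called 150 of 13300 genes between siTdg and siC in EBs (1.13%). Of them 66 were higher and 84 lower in the libraries labelled siTdg, in which Tdg was not lower on the authors' scaling. The median absolute difference was 0.12 against 0.71 between numbers. In this blocked fit 1181 genes had an unadjusted p under 0.05. Without the block limma called 0 genes, with 20 at an unadjusted p under 0.05. Fits that left out 1 library had to drop the block as well, and called 0 genes without siC replicate 1 (95 at an unadjusted p under 0.05) and 1 gene without each of the other libraries.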

How the data were processed

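Per the labels, RNA-seq libraries were made from ribosome-depleted total RNA with a stranded kit. Per the submitters' processing notes, TopHat, Bowtie and mm9 are named for the series, with no roles; no source used here gives the counting tool or annotation. The authors deposited RPKM per gene, scaled within each table. The factors recovered for EBs were 0.619 (siTdg) and 0.639 (siC) in replicate 2, and 1.586 (siTdg) and 1.632 (siC) in replicate 1. These are not proportional to total reads. The 4 RPKM columns that match no sample were not used. Dividing the deposited RPKM by the value of 1 read gave whole reads within 0.01 for 100% of genes, from which depth, gene length and a limma-voom alternative were computed. Differences are on log2(RPKM + 0.5), tested with limma 3.58.1 in R 4.3.3 (lmFit, eBayes with trend) with siRNA and replicate number in 1 model, two-sided, Benjamini-Hochberg over all genes tested. Same-numbered libraries deviated together (r = 0.95 between the siTdg and siC pairs), so the replicate number was kept as a block for siTdg minus siC. Lists and members were chosen with earlier results of these data known, and gene families, genes named for their place in a list and the length correction after values were seen. Of 1206 list entries 1177 matched by symbol, 14 by a RefSeq synonym and 15 not at all. The named genes are Tdg, the 12 most raised and 12 most lowered (called, both pairs of 1 sign, at least 5 RPKM in the higher number, ranked by the smaller difference of the 2 pairs, without clones, predicted genes such as Gm8624, small RNAs and microRNAs), up to 4 per list in the direction of its median, and the defining markers; other names were chosen after their values were seen. The fit was tested on simulated data. Alternatives were other pseudocounts, filters and scalings, and leaving out each library. Median-ratio scaling called 9826 genes between the replicate numbers of EBs, against 9833, and so nearly repeated the main fit.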

Additional observations from a re-analysis of the deposited data

Results flagged for a closer look

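In some results the siTdg pair and the siC pair of libraries moved in opposite directions between replicate 2 and replicate 1, each pair being 1 library against 1, so the difference between them was not tested. The myosin heavy chains Myh6 and Myh7 had differences of 0.1902 and 0.1077 in siTdg and of -0.8635 and -0.6193 in siC. The megakaryocyte integrin Itga2b had -0.0362 in siTdg and 0.4201 in siC. The median of interferon and antigen presentation genes was -0.1632 in siTdg and 0.1582 in siC, that of apoptosis genes 0.0236 and -0.0924, and that of lysosome and endocytic uptake genes -0.0408 and 0.0023.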

How the results depend on the processing

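The count of genes called between the replicate numbers of EBs stayed within 1.5 times the reported one under other pseudocounts, limits on level, scalings, models and the length correction, and lay between 7755 and 9330 when 1 library was left out, which also drops the siRNA block (4109 to 4746 higher, 3611 to 4584 lower). With only genes of 2000 to 4000 bases it was 3651 (1786 higher, 1865 lower) because fewer genes were tested, and with at least 2-fold it was 4591 (2683 higher, 1908 lower). Dropping the siRNA block alone gave 9375 in EBs, and 4361 and 8045 in ESCs at 48 h and 96 h. The length correction left 6950 genes called in the same direction and 421 in the opposite one. In ESCs the 2000 to 4000 base genes gave 2781 (1333 higher, 1448 lower) at 48 h and 3280 (1677 higher, 1603 lower) at 96 h, and leaving out 1 library gave 1677 to 3175 (939 to 1610 higher, 738 to 1565 lower) at 48 h and 6423 to 8413 at 96 h. For siTdg minus siC, with replicate number as a block 150 genes were called, against 0 without the replicate block, 0 with no limit on level, 45 among genes of 2000 to 4000 bases, 73 after quantile normalization, 62 when scaled to total reads and 0 to 1 without 1 library, where the block is dropped too; the cause was not tested. Of 195 named genes 7 turned sign with the length correction: Dnmt3a to 0.35, Mylpf to -0.0142, Tnnt1 to -0.53, Nanos3 to -0.36, Rfx3 to 0.44, Amn to -0.0297 and Spi1 to -0.0566. Under quantile normalization Npc2 turned to -0.21 and Afp to -0.0080. What depth limits was not tested; replicate 2 held fewer reads than replicate 1.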

Other observations

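A few genes were near 0 in 1 replicate number of EBs although every ESC library held them. With limits chosen after the values were seen, 4 genes had at least 5 RPKM in both EB libraries of replicate 2 and in all 8 ESC libraries of 48 h and 96 h but under 0.5 RPKM in both EB libraries of replicate 1: Gm8624, Mrgpra6, Xlr3b and Xlr3c. The transcribed pseudogene Gm8624 had 599.5 RPKM (siTdg) and 692 RPKM (siC) in replicate 2, against 0.132 RPKM (siTdg) and 0.0962 RPKM (siC) in replicate 1, and 221 to 293 RPKM in ESCs. Mrgpra6 had 20.4 RPKM (siTdg) and 22.9 RPKM (siC) in replicate 2, against 0.0117 RPKM (siTdg) and 0.00567 RPKM (siC) in replicate 1, and 229 to 479 RPKM in ESCs. Morf4l1b, a gene closely similar to Morf4l1, had 174 RPKM (siTdg) and 134 RPKM (siC) in replicate 2, against 1.09 RPKM (siTdg) and 0.920 RPKM (siC) in replicate 1. Reads of such copies may be shared with a parent gene, so these values are uncertain, and whether the libraries were mapped or counted alike was not tested. The opposite pattern held for 2 genes, Ly6a, a surface antigen, at 75.7 to 119 RPKM in ESCs, and Anxa8, an annexin, at 7.26 to 11.6 RPKM in ESCs. Ly6a had 0.165 RPKM (siTdg) and 0.214 RPKM (siC) in EBs of replicate 2, against 6.85 RPKM (siTdg) and 6.89 RPKM (siC) in EBs of replicate 1.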
